A study of Homo sapiens with 6 samples.

Results

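The RAS to ERK cascade was examined through 7 genes, HRAS, NRAS, ARAF, BRAF, MAP2K1, MAP2K2 and MAPK3, out of the 63140 genes in the deposited count table. They were chosen by name, as genes of the pathway whose RAS proteins work at the plasma membrane, and each matched 1 row of the table by its symbol. The cells were HEK293, an established human line derived from embryonic kidney. The first group holds 3 libraries of cells given dimethyl sulfoxide (DMSO), the solvent. The second holds 3 libraries of cells exposed at confluence to GSK-A1 at 100 nM over 24 h. The compound GSK-A1 blocks the lipid kinase encoded by PI4KA, the source of phosphatidylinositol 4-phosphate in that membrane. The labels name no deletion or transgene, and they call the libraries of a group biological replicates. The comparison asks which mRNAs of the cascade differed after the enzyme had been inhibited for a day.

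RAS proteins are small GTPases held on the inner face of the plasma membrane by a lipid tail, and they are active while bound to GTP. Active RAS recruits RAF kinases to the membrane, RAF phosphorylates the MEK kinases, and MEK phosphorylates the ERK kinases on a threonine and a tyrosine. ERK then phosphorylates cytosolic and nuclear proteins, and early growth genes and feedback inhibitors are induced. The tail is attached at cysteines near the end of the RAS protein, so the membrane lipids to which it anchors bear on RAS activity. The libraries measured mRNA only, and neither RAS loading with GTP nor phosphorylation was measured.

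The last codons of the RAS genes are shown because they encode the lipid anchor and because they set HRAS and NRAS apart in the reads. Both are given 5′ to 3′ on the coding strand, from codon 170 to the stop, with cysteine codons in capitals. Both sequences come from transcripts of GENCODE release 29 on GRCh38. The HRAS stretch lies on the minus strand at chr11:532636-532698, in exon 5 of 5, and the NRAS stretch on the minus strand at chr1:114708535-114708597, in exon 5 of 7.
HRAS: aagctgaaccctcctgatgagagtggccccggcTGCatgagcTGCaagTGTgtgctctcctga
NRAS: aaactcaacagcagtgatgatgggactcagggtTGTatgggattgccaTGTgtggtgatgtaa
HRAS has 3 cysteine codons here, at positions 181, 184 and 186, and NRAS has 2, at positions 181 and 186. The cysteine at 186 is the one that is prenylated, and the others take palmitate. The stretches are identical at 52.4% of their 63 bases, and the whole coding sequences at 73.0% of 570 bases, with no identical run above 14 bases.

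The activation segments of the kinases are shown because they carry the sites at which one tier of the cascade acts on the next. In MAP2K1 (plus strand, chr15:66481826-66481879, exon 6 of 11) and MAP2K2 (minus strand, chr19:4101019-4101072, exon 6 of 11), the capitals mark the serine codons that RAF phosphorylates, at positions 218 and 222 of MAP2K1 and 222 and 226 of MAP2K2. In MAPK3 (minus strand, chr16:30118071-30118127, exon 4 of 9), they mark the threonine codon 202 and the tyrosine codon 204 that MEK phosphorylates.
MAP2K1: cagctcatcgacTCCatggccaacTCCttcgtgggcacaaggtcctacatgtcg
MAP2K2: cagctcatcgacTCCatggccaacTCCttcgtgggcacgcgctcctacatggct
MAPK3: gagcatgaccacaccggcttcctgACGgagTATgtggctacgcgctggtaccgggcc
The MEK stretches are identical at 49 of 54 bases, with an identical run of 38 bases. No 50-base stretch of the longest HRAS, NRAS, ARAF or MAPK3 transcript occurred in another gene's transcripts. The shares that did occur elsewhere were 1.93% for BRAF, in its pseudogene BRAFP1, which had 0 counts here. They were 3.07% for MAP2K1, in MAP2K1P1, and 2.78% for MAP2K2, spread over many genes. Opposite-strand exons of other genes overlapped 11.5% of the exonic bases of MAP2K1 and 5.29% of those of BRAF, and the strand setting of the counting is not given in the sources used here.

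Library totals ranged from 33040178 to 47777233 counts, and the lowest count of any of the 7 genes in a library was 903, for HRAS. GSK-A1 replicate 2 stood apart from the other libraries of its group (4890 genes were called without it and 3835 with it), so the values of the 7 genes without it are given where they move the most. PI4KA mRNA level, in CPM (counts scaled to a library of 1e+06), was 184 ± 5 in DMSO and 179 ± 7 in GSK-A1 libraries (SD, n = 3), which gave a log2 change of -0.04 ± 0.04 (SE; adjusted p by edgeR = 0.456). The value was -0.0068 without GSK-A1 replicate 2, -0.07 without DMSO replicate 2, -0.08 under upper-quartile factors and 0.0041, with the sign turned, with the GC trend removed. This does not check drug action, because GSK-A1 acts on the protein. Of 7 genes typical of HEK293, 6 were above 1 CPM, among them NEFL, while NEFM was at 0.142 CPM with DMSO and 0.281 CPM with GSK-A1. The summed level of 5 fibroblast genes was 16.6 to 17.5 CPM with DMSO and 10.2 to 12.7 CPM with GSK-A1, with COL1A2 at 0. Nearly all of this sum came from the collagen genes COL1A1 (6.81 CPM with DMSO and 6.11 with GSK-A1) and COL3A1 (9.68 and 5.49). PDGFRB and LUM were at most 0.217 CPM in either group mean. The part of this sum in the results was not tested. Blood, liver and keratinocyte genes summed to at most 0.286 CPM in any library.

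With GSK-A1, HRAS and MAPK3 mRNA fell and BRAF and MAP2K1 mRNA rose, by between 8.51% (MAP2K1) and 18.6% (HRAS, a decrease). NRAS, ARAF and MAP2K2 did not pass the test. Thus 4 of the 7 genes were called by edgeR at an adjusted p under 0.05, where 22.9% of the 16754 genes tested were called. The 7 genes were chosen with earlier results of these data known, so their share is a description only. By direction, 2 genes were higher, against 12.0% of all tested genes, and 2 were lower, against 10.9%. In a fit kept to genes with a mean of at least 5 CPM, 29.8% of 11172 genes and 5 of the 7 were called. The median log2 fold change of the 7 genes was 0.0092, or -0.03 under upper-quartile factors, and that of all tested genes was -0.01. In 5 of the 7 genes the 3 GSK-A1 libraries did not overlap the 3 DMSO libraries, where 40.5% of tested genes showed the same. Only HRAS and BRAF were also called at an adjusted p under 0.01. Leaving out any 1 DMSO library or GSK-A1 replicate 1 gave 2 calls, and leaving out GSK-A1 replicate 2 gave 5.

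**Figure D1:**
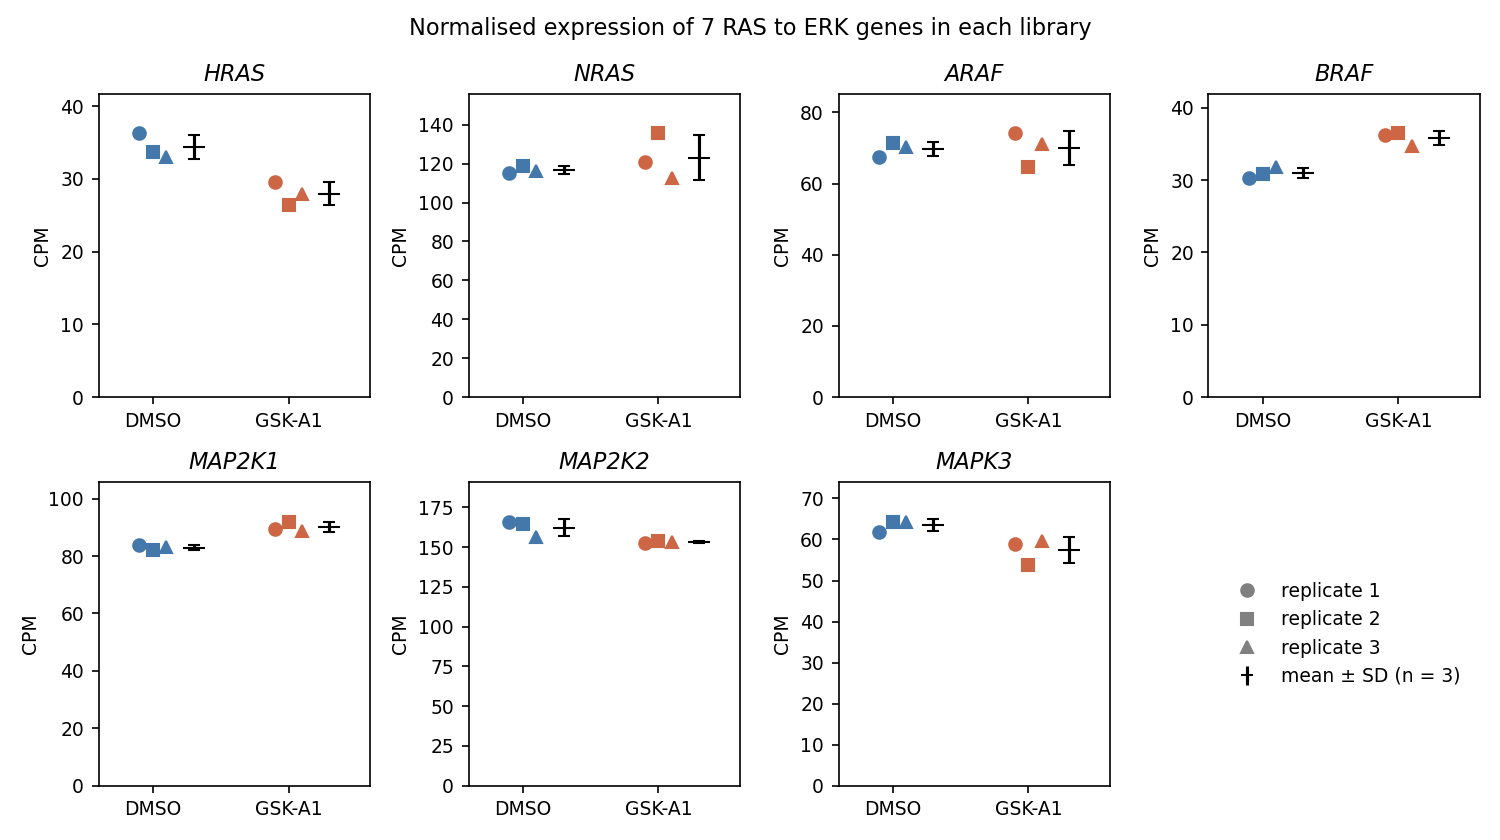
Normalised expression in CPM (vertical axes from 0) of the 7 genes in each DMSO and GSK-A1 library, with points for libraries and black bars for mean ± SD (n = 3). HRAS is lower in every GSK-A1 library, at 26.4 to 29.5 CPM against 33.1 to 36.3, and BRAF is higher in every one, at 34.8 to 36.5 CPM against 30.3 to 31.8.

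HRAS (ENSG00000174775, chromosome 11) encodes the RAS protein with the more palmitoylated tail of the pair. It stood at 36.3, 33.8 and 33.1 CPM with DMSO (replicates 1 to 3, here and below) and at 29.5, 26.4 and 28.0 CPM with GSK-A1. All 3 GSK-A1 libraries lay below all 3 DMSO libraries, and GSK-A1 replicate 2 was the lowest. The mean went from 34.4 ± 1.7 to 28.0 ± 1.5 CPM (SD, n = 3), which gave a log2 change of -0.30 ± 0.06 (SE; adjusted p by edgeR = 0.00123). The change was -18.6%, with a 95% confidence interval of -24.9% to -11.7%. The call held in all 16 other fits, with log2 fold changes from -0.34 to -0.22 and an adjusted p of at most 0.0179. Without GSK-A1 replicate 2 the value was -0.25 (edgeR adjusted p = 2.82e-05).

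NRAS (ENSG00000213281, chromosome 1) encodes the RAS protein with a single palmitoylated cysteine in the stretch shown. It stood at 115, 119 and 116 CPM with DMSO and at 121, 136 and 113 CPM with GSK-A1. GSK-A1 replicate 2 was the highest library and GSK-A1 replicate 3 the lowest, so the groups overlapped. Its change on the log2 scale was 0.08 ± 0.05 (SE; adjusted p by edgeR = 0.350), and its 95% interval ran from -2.82% to 14.2%. Leaving out GSK-A1 replicate 2 gave 0.0057 and leaving out GSK-A1 replicate 3 gave 0.14 (edgeR adjusted p = 0.919 and 0.0515). The SD was 1.84 CPM with DMSO and 11.6 CPM with GSK-A1. The level summed over HRAS and NRAS was 151 ± 2 CPM with DMSO and 151 ± 11 CPM with GSK-A1 (SD, n = 3).

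Among the RAF kinases, BRAF (ENSG00000157764, chromosome 7), which has the highest basal activity of the family, rose. It stood at 30.3, 30.9 and 31.8 CPM with DMSO and at 36.2, 36.5 and 34.8 CPM with GSK-A1. Every GSK-A1 library lay above every DMSO library. The mean went from 31.0 ± 0.7 to 35.8 ± 0.9 CPM (SD, n = 3), which gave a log2 change of 0.21 ± 0.05 (SE; adjusted p by edgeR = 0.00475). The increase was 15.7%, with a 95% interval of 7.91% to 24.0%. It was called in all 16 other fits, with values from 0.17 to 0.23 and an adjusted p of at most 0.0374.

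ARAF (ENSG00000078061, chromosome X) encodes the RAF kinase with the lowest activity towards MEK. It stood at 67.5, 71.4 and 70.2 CPM with DMSO and at 74.2, 64.7 and 71.3 CPM with GSK-A1. The highest and the lowest of the 6 libraries were both GSK-A1 libraries. Its change on the log2 scale was 0.0092 ± 0.05 (SE; adjusted p by edgeR = 0.918), with a 95% interval from -6.41% to 8.22%. Its sign turned to -0.03 under upper-quartile factors and to -0.0078 among genes with a mean of at least 5 CPM. It also turned without DMSO replicate 1 (-0.02) or GSK-A1 replicate 1 (-0.03), and it was 0.07 without GSK-A1 replicate 2.

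Summed over ARAF and BRAF, the level was 101 ± 3 CPM with DMSO and 106 ± 5 CPM with GSK-A1 (SD, n = 3; p = 0.3 by a two-sided exact permutation test, which cannot go below 0.1 here).

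Of the MEK genes, MAP2K1 rose and MAP2K2 did not pass the test. MAP2K1 (ENSG00000169032, chromosome 15), which encodes MEK1, stood at 83.8, 82.0 and 83.0 CPM with DMSO and at 89.3, 92.0 and 88.6 CPM with GSK-A1. The groups did not overlap, with GSK-A1 replicate 2 the highest library. The mean went from 82.9 ± 0.9 to 90.0 ± 1.8 CPM (SD, n = 3), which gave a log2 change of 0.12 ± 0.04 (SE; adjusted p by edgeR = 0.0353), or an increase of 8.51% (95% interval 2.59% to 14.8%). The call was lost under upper-quartile factors (0.08, adjusted p = 0.143) and with library totals only (0.11, adjusted p = 0.0559). It was also lost on leaving out any 1 DMSO library or GSK-A1 replicate 1, with adjusted p from 0.0726 to 0.139 and log2 fold changes from 0.11 to 0.13.

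MAP2K2 (ENSG00000126934, chromosome 19), which encodes MEK2, had the highest level per length of the 7. It stood at 166, 165 and 156 CPM with DMSO and at 153, 154 and 153 CPM with GSK-A1. All 3 GSK-A1 libraries lay below the DMSO libraries, the nearest being DMSO replicate 3. Its change on the log2 scale was -0.08 ± 0.04 (SE; adjusted p by edgeR = 0.116), with a 95% interval from -10.5% to -0.343%. It was called lower under upper-quartile factors (-0.12, adjusted p = 0.0194), among genes with a mean of at least 5 CPM (-0.10, adjusted p = 0.0454) and without GSK-A1 replicate 2 (-0.08, adjusted p = 0.0363). The level summed over both MEK genes was 245 ± 5 CPM with DMSO and 243 ± 2 CPM with GSK-A1 (n = 3, SD; p = 0.6, two-sided exact permutation test).

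At the last tier, MAPK3 (ENSG00000102882, chromosome 16), which encodes ERK1, fell. It stood at 61.8, 64.3 and 64.4 CPM with DMSO and at 58.8, 53.9 and 59.7 CPM with GSK-A1. The groups did not overlap, and GSK-A1 replicate 2 was the lowest library. The mean went from 63.5 ± 1.4 to 57.5 ± 3.1 CPM (SD, n = 3), which gave a log2 change of -0.14 ± 0.05 (SE; adjusted p by edgeR = 0.0349), or -9.41% (95% interval -15.3% to -3.06%). Without GSK-A1 replicate 2 it was -0.10 (adjusted p = 0.0418). The call was lost without any 1 DMSO library or GSK-A1 replicate 1 (adjusted p = 0.0673 to 0.137) and with DESeq2 (-0.14, adjusted p = 0.0521).

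The direction of change was then set beside the base composition of the transcripts, because the fold changes of all tested genes varied with GC content. GC content was known for 96.1% of tested genes, from the longest transcript. Among the 2533 genes at or below 40% GC the median log2 fold change was 0.07, and 585 were called higher and 114 lower. Among the 2305 genes above 60% GC the median was -0.09, and 107 were called higher and 431 lower. HRAS, MAPK3 and MAP2K2 were the most GC-rich of the 7, at 65.8%, 61.4% and 60.9%, followed by ARAF at 58.9% and MAP2K1 at 50.4%. NRAS and BRAF were the least GC-rich, at 38.4% and 40.03%.

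With each library's GC trend removed, 3 of the 7 genes were called, HRAS, BRAF and MAP2K1. In that fit 26.6% of the 16094 genes tested were called. HRAS stood at -0.22 ± 0.05 (SE; adjusted p by edgeR = 0.00162) and BRAF at 0.17 ± 0.04 (adjusted p = 0.00431). MAP2K1 stood at 0.14 ± 0.03 (adjusted p = 0.00391). MAPK3 was no longer called, at -0.07 ± 0.04 (adjusted p = 0.150), against -0.14 without the correction. MAP2K2 stood at -0.0099 ± 0.04 (adjusted p = 0.875), ARAF at 0.07 ± 0.04 (adjusted p = 0.166) and NRAS at 0.02 ± 0.04 (adjusted p = 0.716). Under upper-quartile factors 33.3% of all called genes were higher, against 52.3% under the trimmed mean of M values (TMM).

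**Figure D2:**
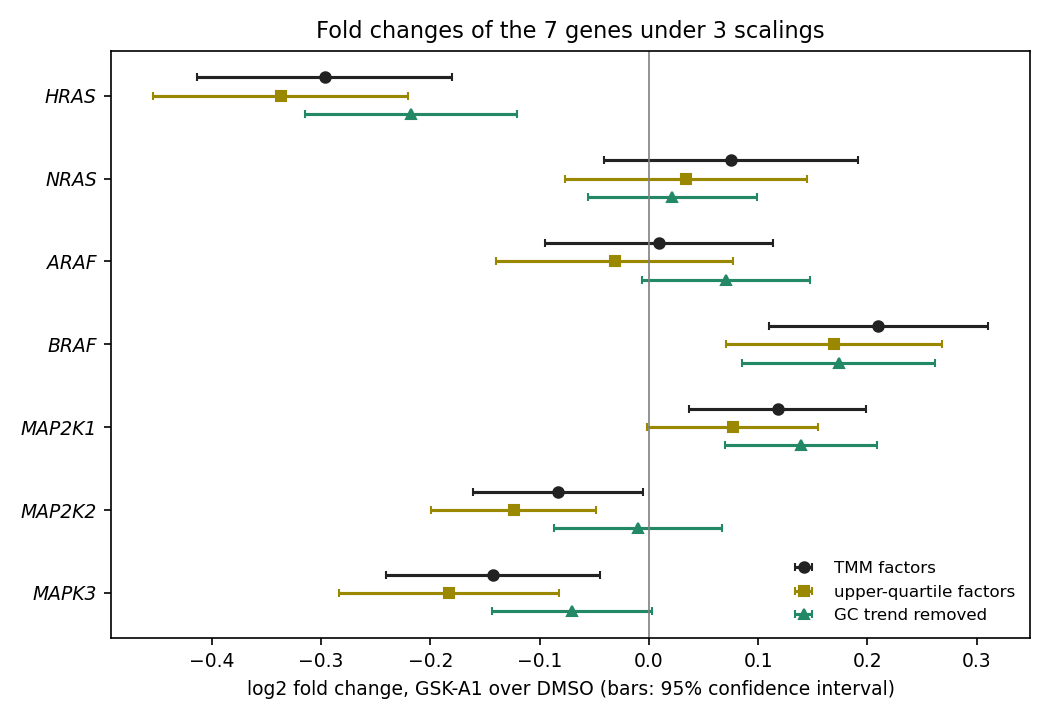
Log2 fold change of GSK-A1 over DMSO (horizontal axis) of the 7 genes with 95% confidence intervals, under TMM factors, upper-quartile factors and with the GC trend removed. The intervals of HRAS and BRAF stay on one side of 0 under all 3 scalings, while that of MAPK3 reaches 0.0030 with the GC trend removed.

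**Figure D3:**
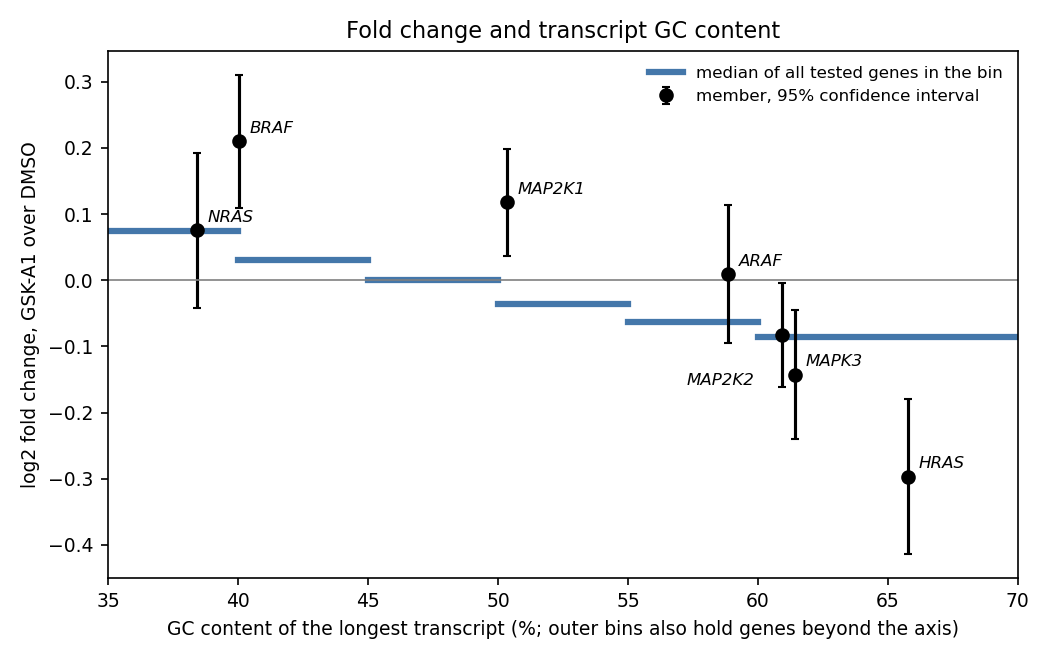
Log2 fold change of GSK-A1 over DMSO (vertical axis) against the GC content of the longest transcript in percent (horizontal axis), with black points and 95% intervals for the 7 genes and blue lines for the median of all tested genes in each GC bin. The bin medians run from 0.07 at or below 40% GC to -0.09 above 60% GC, and HRAS lies below and BRAF above the median of its bin.

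Levels between genes were compared per length, as CPM per kilobase of the longest transcript in GENCODE release 29, which may not be the isoform these cells use. With DMSO the level of MAP2K2 was 55.5 ± 1.8 CPM per kilobase (SD, n = 3). HRAS followed at 27.9 ± 1.4, ARAF at 27.8 ± 0.8 and NRAS at 26.2 ± 0.4, and HRAS and ARAF lay within their spread. MAPK3 at 24.7 ± 0.6 and MAP2K1 at 24.3 ± 0.3 also lay within their spread. BRAF was the lowest at 3.24 ± 0.08 CPM per kilobase, over a longest transcript of 9578 bases. With GSK-A1, HRAS stood at 22.7 ± 1.3 CPM per kilobase, below NRAS at 27.7 ± 2.6 and next to MAPK3 at 22.4 ± 1.2.

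The balance within each pair was read as the share of counts that one gene took of the pair, which does not depend on the library factors. HRAS took 24.0%, 22.1% and 22.1% of HRAS and NRAS counts with DMSO and 19.7%, 16.3% and 19.9% with GSK-A1. BRAF took 31.0%, 30.2% and 31.2% of BRAF and ARAF counts with DMSO and 32.8%, 36.1% and 32.8% with GSK-A1. MAP2K1 took 33.5%, 33.2% and 34.7% of the MEK counts with DMSO and 36.9%, 37.4% and 36.7% with GSK-A1. The groups did not overlap in any of the 3 pairs, and GSK-A1 replicate 2 was the most distant library in each.

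As log2 ratios, HRAS over NRAS differed by -0.37 between the groups, from -1.76 ± 0.09 with DMSO to -2.13 ± 0.20 with GSK-A1 (SD, n = 3). BRAF over ARAF differed by 0.20, from -1.17 ± 0.03 to -0.97 ± 0.12. MAP2K1 over MAP2K2 differed by 0.20, from -0.97 ± 0.05 to -0.77 ± 0.02. Each gave an exact two-sided permutation p of 0.1 and an adjusted value of 0.1 over the 3 pairs, which is the smallest that 3 against 3 libraries allow, so this test could not pass 0.05. Without GSK-A1 replicate 2 the differences were -0.26, 0.13 and 0.19. In each pair the gene whose share was higher with GSK-A1 than with DMSO was the less GC-rich one, and the part of base composition in these ratios was not tested.

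**Figure D4:**
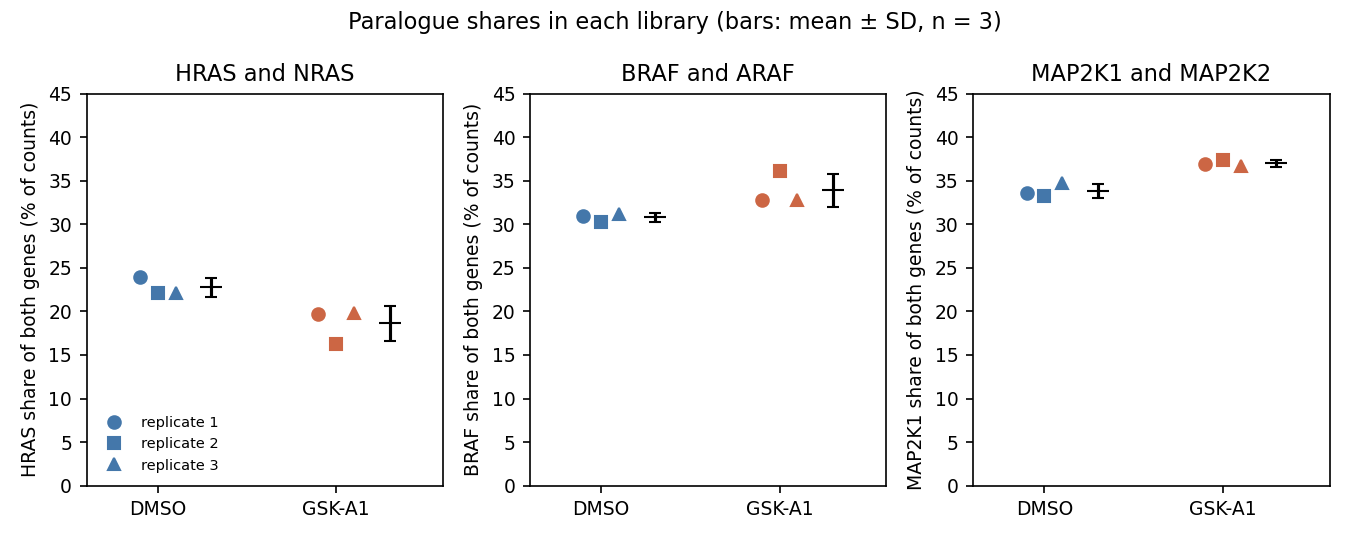
Share of counts in percent (vertical axes from 0) that HRAS, BRAF and MAP2K1 took of their pair with NRAS, ARAF and MAP2K2, with points for libraries and black bars for mean ± SD (n = 3). The HRAS share is lower in all GSK-A1 libraries, at 16.3% to 19.9% against 22.1% to 24.0%, and the BRAF and MAP2K1 shares are higher in all of them.

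The genes around the cascade were read from lists ordered by role. These lists were written with earlier results of these data known, so their shares are descriptions and carry no independent weight. Each list's count is given against the 22.9% of all tested genes called in either direction. Among genes with a mean of at least 5 CPM that share was 29.8%. With the GC trend removed it was 26.6%, and under upper-quartile factors 24.0%. It was 12.9%, 13.2% and 12.7% without DMSO replicates 1, 2 and 3. Without GSK-A1 replicates 1, 2 and 3 it was 15.9%, 28.1% and 21.9%. A list share near that of all tested genes in the same fit is no result about the list. Among exchange factors that load RAS with GTP, 1 of 6 tested genes rose and 1 fell, a share of 33.3%. SOS1, the exchange factor that receptors recruit, rose by 0.15 ± 0.04 and RASGRP1, which responds to diacylglycerol, fell by 0.21 ± 0.07 on the log2 scale (SE; edgeR adjusted p = 0.0226 and 0.0486). Neither SOS1 nor RASGRP1 was called without DMSO replicate 1 or 3. SOS1 was also not called with the GC trend removed (0.09, adjusted p = 0.0687), nor under upper-quartile factors (0.10, adjusted p = 0.0824), and RASGRP1 was not called in 9 of 16 other fits, DESeq2 among them (adjusted p = 0.119).

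Of the GTPase-activating proteins, which switch RAS off, 2 of 9 tested genes were called, both higher, a share of 22.2% that is close to that of all tested genes. Leaving out DMSO replicate 1 or 2 or GSK-A1 replicate 1 gave 1 call. RASA2 went from 19.8 ± 0.1 to 24.2 ± 2.0 CPM (SD, n = 3), which gave a log2 change of 0.29 ± 0.06 (edgeR adjusted p = 0.00362). NF1, which encodes neurofibromin, rose by 0.13 ± 0.04 (adjusted p = 0.0171) and was not called without those libraries or under upper-quartile factors (0.09, adjusted p = 0.0763).

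Of the adaptors that link receptors to SOS, 6 of 11 were called (54.5%), all higher, against 12.0% of all tested genes called higher, with a median log2 fold change of 0.12. GAB2, a docking protein, went from 21.3 ± 0.5 to 30.3 ± 2.1 CPM (SD, n = 3; log2 fold change 0.51 ± 0.06, edgeR adjusted p = 1.69e-05). PTPN11, which encodes the phosphatase SHP2, went from 360 ± 3 to 425 ± 12 CPM (0.24 ± 0.03, adjusted p = 1.24e-04). SHC3 rose from a low level, 4.90 ± 0.20 to 6.67 ± 0.63 CPM (0.43 ± 0.09, adjusted p = 0.00343). The 6 calls became 3 without DMSO replicate 2 or 3.

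Of the enzymes and carriers that add lipids to RAS and deliver it to membranes, 2 of 12 were called, both higher, a share of 16.7%, below that of all tested genes. FNTA, a farnesyltransferase subunit, rose by 0.16 ± 0.05 (SE; adjusted p by edgeR = 0.0448) and GOLGA7, the partner of a RAS palmitoyltransferase, by 0.14 ± 0.05 (adjusted p = 0.0406). Both calls were lost on leaving out any 1 DMSO library, under library totals alone, at a mean of at least 5 CPM and under upper-quartile factors (adjusted p = 0.114 for FNTA and 0.117 for GOLGA7). In all, FNTA lost its call in 10 of 16 other fits and GOLGA7 in 7. FNTA was at 0.10 without GSK-A1 replicate 2 (adjusted p = 0.0764) and at 0.11 with the GC trend removed (adjusted p = 0.0612). Under upper-quartile factors the list had 1 call, a lower one, and on leaving out GSK-A1 replicate 3 it had 4.

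Of the other RAS-related GTPases, 7 of 14 tested genes were called, all higher, against 12.0% of all tested genes called higher, with a median log2 fold change of 0.16. The median was 0.10 without GSK-A1 replicate 2. RALA, RAP2B and RHEB rose by 0.23 ± 0.05, 0.23 ± 0.05 and 0.19 ± 0.04 (SE; edgeR adjusted p = 0.00380, 0.00496 and 0.00555). Their median GC content was 41.5%, and with the GC trend removed the median change was 0.11 with 6 calls. The 7 calls became 3 without DMSO replicate 1 or 3.

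Of the scaffolds and modulators of the kinases, 6 of 25 rose and 1 fell, a share of 28.0%. PEA15, which binds ERK and holds it in the cytoplasm, went from 85.1 ± 0.5 to 107 ± 3 CPM (SD, n = 3; log2 fold change 0.33 ± 0.04, edgeR adjusted p = 2.38e-05). YWHAH, a 14-3-3 protein, rose by 0.33 ± 0.05 (adjusted p = 1.53e-04) and the scaffold IQGAP1 by 0.18 ± 0.04 (adjusted p = 0.00223). Leaving out DMSO replicate 3 gave 4 calls here, and leaving out GSK-A1 replicate 2 gave 11.

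Of the kinases and transcription factors that ERK phosphorylates, 4 of 14 rose and 2 fell, a share of 42.9%. ELK4 went from 59.0 ± 2.5 to 77.5 ± 1.8 CPM (SD, n = 3; log2 fold change 0.39 ± 0.04, edgeR adjusted p = 1.45e-05), while its relative ELK1 fell by 0.19 ± 0.04 (adjusted p = 0.00300). RPS6KA3, which encodes the kinase RSK2, rose by 0.24 ± 0.04 (adjusted p = 9.14e-04). With GC content at 38.5% for ELK4 and 57.0% for ELK1, both kept their calls with the GC trend removed.

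The genes that ERK signalling induces gave the largest differences of these lists. Of 21 tested, 17 were called, all higher, against 12.0% of all tested genes called higher. Their median log2 fold change was 0.57 against -0.01 over all tested genes. As this list too was written with earlier results known, its share is a description only. EGR1, ETV4 and FOS rose by 2.22 ± 0.06, 1.72 ± 0.06 and 1.87 ± 0.08 (SE; edgeR adjusted p = 4.77e-13, 9.62e-12 and 1.65e-10). Their changes were several times larger than that of any gene of the core, whose values ran from -0.30 to 0.21. CCND1, the cyclin D1 gene, stood at 259 CPM with DMSO and 260.1 CPM with GSK-A1 (0.0059, adjusted p = 0.927), named after its values were seen.

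Among MEK and MAP kinase genes of the other arms, 3 of 17 rose and 1 fell, a share of 23.5% that is close to that of all tested genes. MAP2K6, a kinase of the p38 arm, fell to 6.25 ± 0.64 CPM with GSK-A1 (SD, n = 3; log2 fold change -1.05 ± 0.09, edgeR adjusted p = 7.14e-07). MAPK6 and MAPK8 rose by 0.17 ± 0.05 and 0.18 ± 0.05 (adjusted p = 0.0181 and 0.0208). Leaving out DMSO replicate 1 or 2 gave 2 calls and leaving out DMSO replicate 3 gave 1. Under upper-quartile factors none of the 3 higher calls was kept and 2 genes were called lower. MAPK6 and MAPK8 then stood at 0.12 and 0.13 (edgeR adjusted p = 0.0521 and 0.0589), and at 0.11 and 0.12 with the GC trend removed, where both were called. The fit with the GC trend removed called 7 of the 17 genes, 6 higher and 1 lower, where 26.6% of all tested genes were called.

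**Figure D5:**
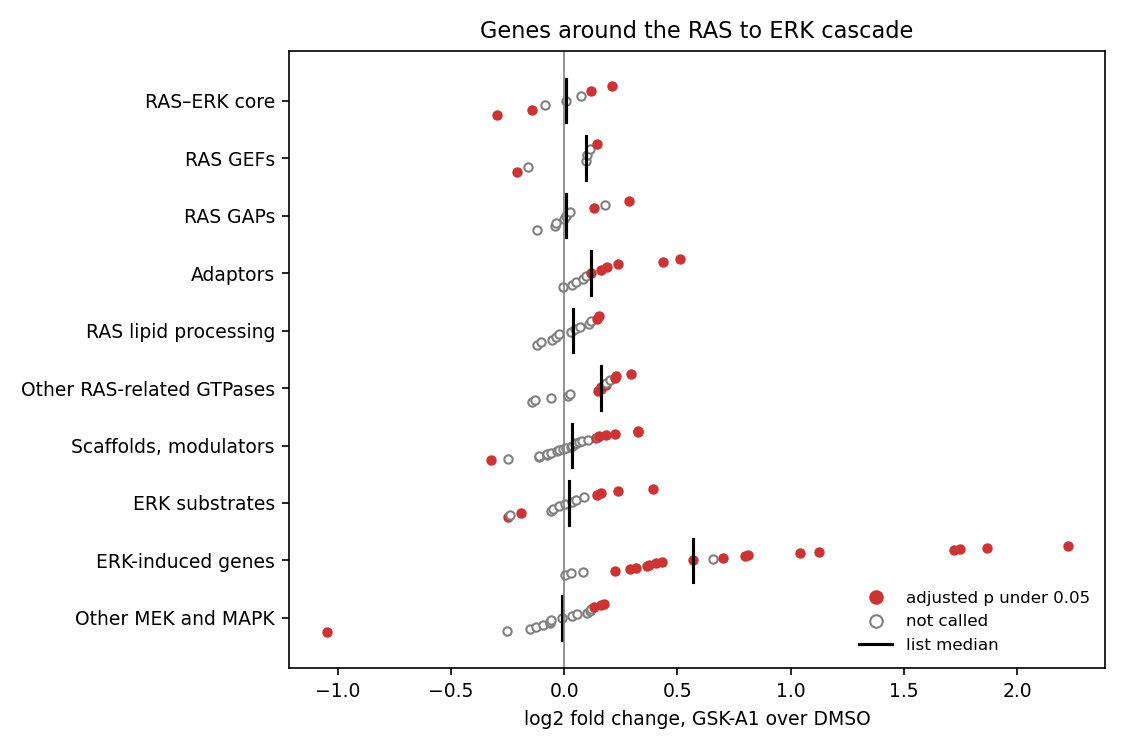
Log2 fold change of GSK-A1 over DMSO (horizontal axis) of each tested gene in the core and in the lists around it, with filled points for an edgeR adjusted p under 0.05, open points for other genes and black lines for list medians. The core spans -0.30 to 0.21, while the ERK-induced genes have a median of 0.57 and reach 2.22.

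The genes whose profile over the 6 libraries lay nearest to that of HRAS were found by the root mean square difference of mean-centred log2 CPM, among 10945 genes with a symbol and a mean of at least 5 CPM. RPP25L was nearest, at 0.019 log2 units, followed by ADCK1 at 0.020 and SLC25A11 at 0.024. RPP25L went from 17.8 ± 0.8 to 14.1 ± 0.9 CPM and SLC25A11 from 154 ± 3 to 126 ± 6 CPM (SD, n = 3). Within the core, MAPK3 was nearest to HRAS at 0.099 and BRAF farthest at 0.26. This likeness is a description over 6 libraries in 2 groups.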

How the data were processed

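Libraries from 6 HEK293 cultures were analysed, 3 per group, grouped and numbered by their titles. The values the authors deposited were unnormalized counts, 1 whole number for each gene and library. The submitters' processing notes name cutadapt 5.1, STAR 2.7.11b, featureCounts from Subread 2.1.1, DESeq2 1.38.0 and GRCh38.p13. The annotation release and the strand setting are not given in the sources used here. A stranded kit was used and all libraries carry the same batch label, per the labels.

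Genes were kept by filterByExpr, scaled by TMM factors and tested over all 16754 genes with the quasi-likelihood F test of edgeR 4.0.16 (R 4.3.3, robust, legacy option off). Benjamini-Hochberg adjustment ran over all tested genes, with calls under 0.05. Standard errors are the log2 coefficient over the square root of F. CPM are counts divided by the TMM-scaled total and multiplied by 1e+06. Gene lengths, GC content, positions and sequences came from GENCODE release 29. For the GC correction, a loess curve (span 0.3) through log2 CPM against GC content was fitted per library and used as an offset. DESeq2 1.42.0 and limma 3.58.1 (voom) were alternatives, and the code was tested on simulated counts. When these had gene-wise dispersions, 11.3% of calls were false, above the nominal level, and with trended dispersions 1.20% were. Calls near the threshold may be less certain than their adjusted p-values say, which was not tested for the data themselves.

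The 7 genes and all lists were chosen with earlier results of these data known. Named were the 7 genes, PI4KA, up to 3 called genes with the smallest p-values per list, and the 3 profiles nearest to the gene of the core with the smallest p-value. Gene lists were not tested as sets. Some genes of the naming rule are not reported here. Errors given are those between libraries.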

Additional observations from a re-analysis of the deposited data

How the results depend on the processing

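Of the 16 alternative fits, HRAS and BRAF kept their direction and call in all 16 and NRAS its direction and lack of a call in all 16. The number of genes called moved to 1871 at an adjusted p under 0.01 and to between 2163 and 4890 with 1 library left out. The number of the 7 genes called moved to 2 at an adjusted p under 0.01, and to between 2 and 5 with 1 library left out. The 53 calls in the other lists became 33 to 61 with 1 library left out. The share of all tested genes called was 22.9% in the main fit. It ran from 12.7% to 28.1% with 1 library left out, so these counts moved along with those of all genes. ARAF turned to -0.031 under upper-quartile factors and to -0.0078 at a mean of at least 5 CPM, and with 1 library left out it ran from -0.028 to 0.068. MAP2K1 was not called under upper-quartile factors (0.077) or library totals (0.11), and ran from 0.11 to 0.13 with 1 library left out. MAP2K2 was called under upper-quartile factors (-0.12) and at a mean of at least 5 CPM (-0.10), and ran from -0.11 to -0.066. MAPK3 was not called with DESeq2 (-0.14) or the GC trend removed (-0.070), and ran from -0.17 to -0.095. PI4KA turned to 0.0041 with the GC trend removed. The cause of these shifts was not tested. A fit with 1 library left out also holds fewer samples, and the part of this was not tested either. The 27 other genes of the naming rule gave 432 alternative values, of which 391 kept their direction and call and 40 lost the call.

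Replicate numbers are not stated to mark a shared batch. Deviations from the group means of same-numbered libraries correlated at 0.012, 0.035 and 0.042. Those of differently numbered libraries ran lower, from -0.044 to 0.00032. These low values from 3 libraries per group do not settle whether the samples were paired. With the replicate number as a block, 4127 genes (24.6% of those tested), 4 of the 7 genes and 57 genes of the other lists were called. No gene of the core changed its call. For the paralogue differences the block leaves the value the same by arithmetic and shows nothing of their stability (exact sign-flip p = 0.25 each, the smallest that 3 pairs allow). The GC correction together with the block was not run, because the correlations of same-numbered libraries were low.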
